A study of Mus musculus with 46 samples.

Results

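Deep-layer chandelier cells were represented by 52 of the 584 GABAergic neurons of mouse frontal cortex in the series. They were the cells whose column names begin with the prefix given to deep chandelier cells, and they came from 4 libraries (14, 14, 16 and 8 cells in libraries 1 to 4), each of which pooled up to 16 cells under separate barcodes. Libraries 1 and 2 came from animal 11 and libraries 3 and 4 from animal 12, both male Nkx2.1-CreER; Ai14 mice of postnatal day 34, with red fluorescent cells isolated from layers 5 and 6 of frontal cortex. Upper-layer chandelier cells (80 cells, 5 libraries, 2 animals) carried the same driver and came from female mice of postnatal days 40 to 58, at the border of layer 1 in infralimbic and prelimbic cortex; their labels name the reporter Ai14, or Ai15 in library 3, and give animal 14 both ages.

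The other groups were PV basket cells (Pv-iresCre; Ai14, both sexes, postnatal days 58 to 83, 127 cells), Martinotti cells (Sst-Flp; CR-Cre; Ai65, female, postnatal day 35, 62 cells), long-projecting cells (Sst-Flp; Nos1-Cre; Ai65, male, postnatal days 28 to 29, 136 cells), interneuron-selective cells (Vip-Flp; CR-Cre; Ai65, female, postnatal day 32, 63 cells) and CCK basket cells (Vip-Flp; CCK-Cre; Ai65, male, postnatal days 39 to 40, 64 cells). No treatment was compared. The sample records share a remark that the inducible Nkx2.1-CreER mouse received tamoxifen on embryonic day 17.5. CreER marks whichever cells express Nkx2-1 at induction, so the driver and the dissected layer, rather than cell shape, define the deep group.

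Chandelier cells are cortical interneurons that place rows of boutons, called cartridges, on the axon initial segment of pyramidal neurons, where action potentials start. They arise from progenitors of the medial ganglionic eminence that express the transcription factor Nkx2-1, and late progenitors yield many of them. Best known in upper cortical layers, they are also found in deep layers.

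Cells within a library were told apart by a barcode of 9 bases in the primer that starts reverse transcription. The same 16 barcodes served every library, and 6 of them were used in all 4 deep libraries, so a barcode seen in several libraries does not mark a shared cell. Over the 120 pairs of barcodes, sequences differed at 2 to 7 of 9 bases. The first of the 4 closest pairs is shown because the comparison of cells within a library rests on such differences, and capitals mark the bases that differ.
Barcode in 4 deep libraries: cCtgacGac
Barcode in 2 deep libraries: cGtgacCac

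Library totals in the series ran between 530927 and 4568242 counts. Deep libraries 1 to 4 held 1398702, 1305160, 2905296 and 1821141 counts, against 916788 to 2339398 in upper chandelier libraries, and single deep cells held 11790 to 546900. Below, CPM is a gene's count, summed over the cells of a library and scaled to a library total of 1000000. A count of 0 over all deep cells allows up to 0.404 CPM (3 counts of 7430299), a limit that covers counting error only. The deep libraries were alone on their sequencing flow cell, alone in their age, and of 1 sex. Cell type, age and flow cell therefore cannot be told apart. Against upper chandelier cells, the same holds for sex and the labelled area of dissection. The female-specific transcript Xist was at 0 in all 4. The Y-linked gene Eif2s3y stood at 160.9, 0, 143.9 and 220.7 CPM in libraries 1 to 4, so library 2, labelled male, had no count of it. Ddx3y, another Y-linked gene described below, was highest in library 2, although it can share reads with its X-linked copy Ddx3x.

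By the share of genes present in one library and missing from another, the 4 deep libraries differed from each other more than the libraries of each of the other 6 types did. Of 5168 genes with at least 100 CPM in 1 or more deep libraries, 905 (17.5%) reached that level in all 4, and 1053 (20.4%) had 3 counts or fewer in another deep library. In upper chandelier libraries, 35.7% of 3974 genes reached 100 CPM in all 5, and 1.69% had 3 counts or fewer in another. With every library thinned to 916772 counts, the share at 3 counts or fewer elsewhere was 26.4% in deep and 2.03% in upper chandelier cells. The next highest unthinned share was 13.0%, in interneuron-selective cells, whose libraries held 530927 to 1092091 counts, and the lowest was 0.424% in long-projecting cells. These shares describe the libraries and carry no test.

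Pearson's r of log2(CPM + 1) over 15533 genes was 0.668 and 0.707 in the 2 pairs of deep libraries from the same animal, within the range of 0.622 to 0.741 of the 4 pairs from different animals. Between upper chandelier libraries it was 0.803 to 0.848. Each deep library was closer to libraries of some other types than to the other deep ones. Libraries 1 to 4 had a median r of 0.698, 0.660, 0.707 and 0.698 with the other deep libraries, against 0.739, 0.666, 0.767 and 0.716 with upper chandelier and 0.729, 0.668, 0.753 and 0.708 with PV basket libraries. Libraries 1, 3 and 4 were also closer to long-projecting libraries (0.719, 0.738 and 0.706), and library 2 was closest to PV basket libraries. Genes are not independent points, and depth enters such values.

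Within a library, the median gene differed between cells by about as much as sampling gives. For each gene with at least 100 counts in a library, the squared differences between its cells and the library profile were summed. This sum was divided by what random sampling of counts alone gives on average, so a gene without further spread averages 1. The median over genes can lie below 1 under sampling alone. How far below depends on the number and totals of the cells and was not computed. The median gene stood at 0.921, 0.967, 0.972 and 0.859 in deep libraries 1 to 4, against 0.905 to 1.35 in the other 42 libraries and 1.18 to 1.35 in upper chandelier libraries. All 4 deep values lay below 1, which sampling alone can give. With genes of at least 500 counts they were 0.931 to 1.03, against 0.975 to 1.75 elsewhere. The 90th percentile over genes was 1.71 to 2.28 in deep libraries, against 1.62 to 2.69 elsewhere, and sampling alone also puts some genes above 1. The median r between 2 cells was 0.675 to 0.812, against 0.580 to 0.917 elsewhere. Whether the barcoded columns of a library are separate cells cannot be told from these values, so each count of cells below is a count of barcodes. In library 4, Vip was counted in 8 of 8 cells at 1298 to 2055 CPM per cell, and in 0 of 14, 0 of 14 and 3 of 16 cells of libraries 1 to 3. In PV basket cells, which lack Vip, 2 of 127 cells had a count, at a median of 130761 counts per cell against 86145 in deep cells.

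**Figure D1:**
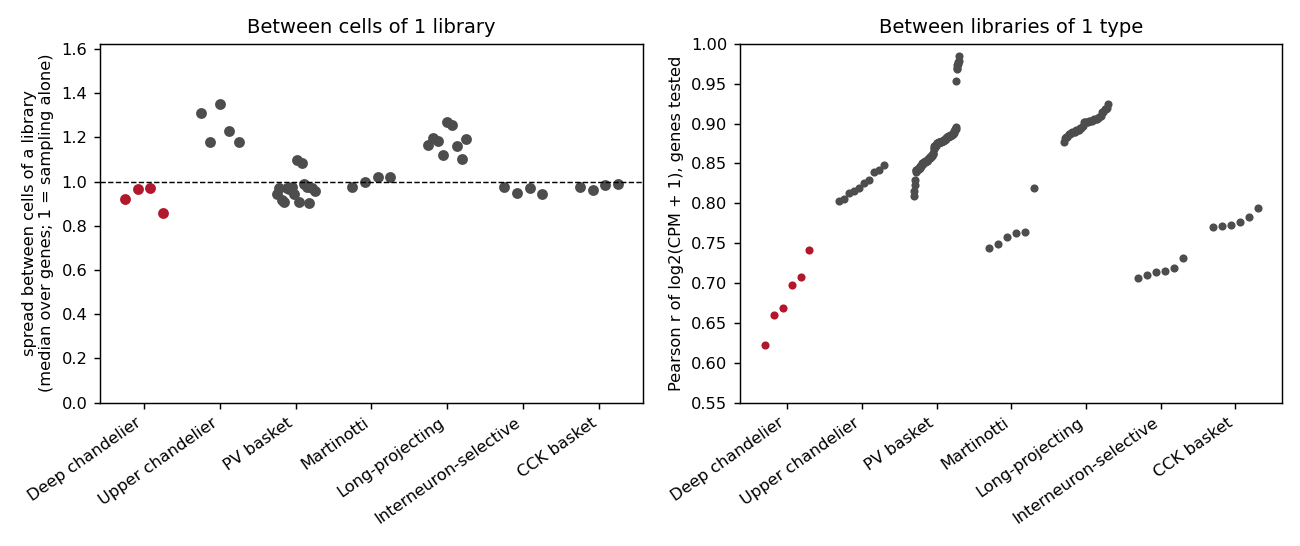
Left, for each library of each type, the median ratio of cell-to-cell spread to the average given by sampling alone, with deep chandelier cells first. The dashed line at 1 marks that average, and the median under sampling alone can lie below it. Right, Pearson's r of log2(CPM + 1) between libraries of the same type over 15533 genes. Deep chandelier libraries sat at 0.859 to 0.972 on the left, and at 0.622 to 0.741 on the right, below the upper chandelier pairs at 0.803 to 0.848.

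Of the 5 chandelier markers, Rasgrf2 was at or above 100 CPM in all 4 deep libraries, and each of the other 4 was low in at least 1. Rasgrf2, which encodes a guanine nucleotide exchange factor for Ras, was at 363, 1131, 698 and 162 CPM in deep libraries 1 to 4, against 9.51 to 125 CPM in upper chandelier libraries. No deep library overlapped an upper one. The difference to upper chandelier cells was 4.32 on the log2 scale (SE 0.60, adjusted p = 0.00351), and it held without each deep library and without each of the 16 replicates. In counts of this kind, fewer expressing cells and less RNA per cell cannot be told apart, although Rasgrf2 was counted in every deep cell. Rasgrf2 was also counted in 127 of 127 PV basket cells, and against them it was not called (log2 0.97, adjusted p = 0.271). It was called higher than in the mean of the other types (log2 2.66, adjusted p = 0.000225). Its level was thus not shown to set deep chandelier cells apart from PV basket cells.

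Id2, an inhibitor of basic helix-loop-helix transcription factors, was at 2053, 1483, 805 and 23.6 CPM in deep libraries 1 to 4. Libraries 1 to 3 lay far above library 4 and above the upper chandelier range of 42.5 to 287 CPM, and library 4 lay below it. Id2 was higher in deep chandelier cells than in the mean of the other 6 types (log2 7.21, SE 0.55, adjusted p = 9.84e-06), and its difference to upper chandelier cells (log2 3.65, SE 0.91) missed the threshold at an adjusted p of 0.0514.

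Glp1r, the receptor for glucagon-like peptide 1, was at 0, 218, 0.688 and 165 CPM. Libraries 2 and 4, from different animals, were high, with a count in 14 of 14 and 8 of 8 cells, and libraries 1 and 3 were at or near 0, with a count in 0 of 14 and 2 of 16 cells. A count was also found in 22 of 127 PV basket cells, at a mean of 1.22 CPM. Upper chandelier libraries held 0.427 to 4.16 CPM. The difference to upper chandelier cells (log2 5.93, SE 1.33, adjusted p = 0.0355) was lost without deep library 2 or deep library 4, with an adjusted p up to 0.164.

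Pthlh, which encodes parathyroid hormone-related peptide, was at 177, 1.53, 230 and 186 CPM in deep libraries, against 463 to 770 CPM in upper chandelier libraries. Every deep library lay below every upper one, and library 2 was nearly without it, with a count in 2 of 14 cells. The difference to upper chandelier cells (log2 -1.64, SE 0.69) had an adjusted p of 0.189, whereas Pthlh was higher than in the other 6 types together (log2 4.58, SE 0.50, adjusted p = 0.00012). Nkx2-1, the lineage factor that drives the reporter, was at 15.0, 16.1, 60.2 and 16.5 CPM in deep libraries and at 48.0 to 108 CPM in upper ones, where the animal means were 29.4 ± 19.7 and 76.4 ± 4.22 CPM (SD, n = 2 each). It passed no test against the other 6 types (log2 0.78, adjusted p = 0.266) or upper chandelier cells (log2 -1.10, adjusted p = 0.349).

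Of 6 further genes named for chandelier cells, 3 were higher than in the other 6 types and 1 lower; of all 15533 genes tested, 12.3% were called higher and 6.79% lower. Unc5b, a netrin receptor, was at 240, 0.766, 204 and 182 CPM, so that library 2 stood apart as it did for Pthlh. Vipr2, a receptor for vasoactive intestinal peptide, was at 95.1 CPM in library 1 and at 0.766 to 1.72 CPM in libraries 2 to 4, and its call against the other 6 types (log2 5.17, adjusted p = 0.00134) was lost without library 1 (adjusted p = 0.538). Cpne5, a copine, was at 19.3, 0.766, 35.5 and 52.2 CPM in deep libraries, against 191 to 287 CPM in upper ones, with no call (log2 -2.90, adjusted p = 0.12). Hapln1, also called higher and described below, was present in all 4 deep libraries. Markers of the chandelier label were therefore present in deep libraries 1, 3 and 4 in different combinations. Library 2 carried Rasgrf2, Id2, Glp1r and Hapln1, with Pthlh, Unc5b and Cpne5 at or near 0. Vipr2 was near 0 there too, as it was in libraries 3 and 4.

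**Figure D2:**
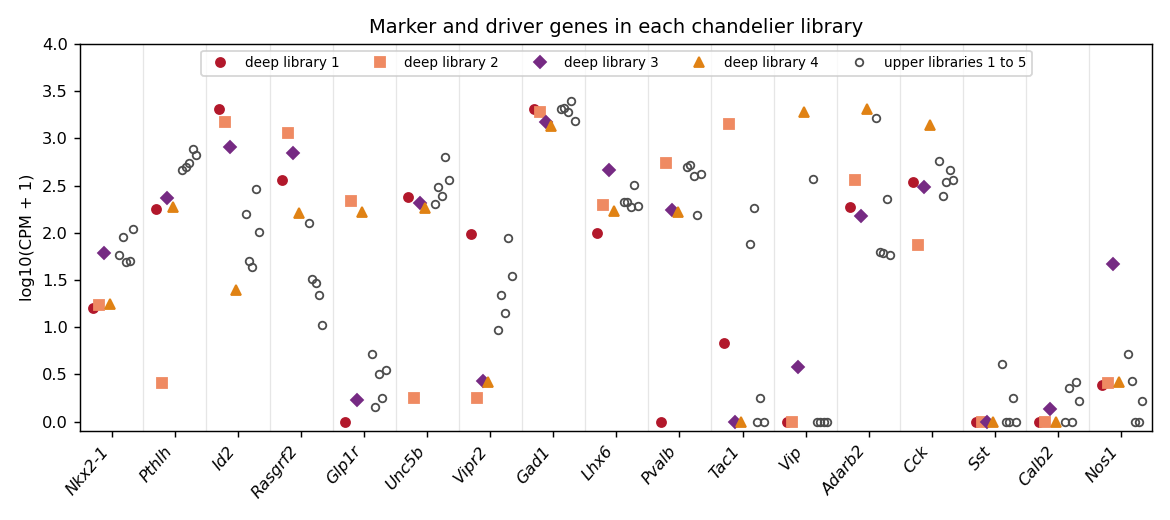
Level of 17 marker genes as log10(CPM + 1), with deep chandelier libraries 1 to 4 as filled symbols left of the 5 upper chandelier libraries as open circles. Deep libraries were scattered widely in Pthlh (1.53 to 230 CPM), Glp1r (0 to 218), Pvalb (0 to 553), Tac1 (0 to 1434) and Vip (0 to 1918), and lay close together in Gad1 (1361 to 2054).

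Transcripts of inhibitory neurons were high in all 4 deep libraries. Gad1, which encodes a GABA-synthesising enzyme, was at 2054, 1892, 1492 and 1361 CPM, against 1534 to 2509 CPM in upper chandelier libraries, so that libraries 3 and 4 lay just under the upper range. Gad2, the other synthesising enzyme, was at 1747, 1049, 1197 and 708 CPM, against 263 to 591 CPM in upper chandelier libraries, with no overlap and a difference of 1.73 (log2, SE 0.31, adjusted p = 0.014). Slc32a1, which loads GABA into vesicles, was at 373, 778, 857 and 339 CPM, below the lowest of the other 42 libraries at 924.7, although the ranges overlapped with TMM-scaled CPM, in which library totals are adjusted by trimmed-mean factors. Over the list of 9 genes of inhibitory neurons, 6 were higher and 1 lower than in the other 6 types, with a median log2 difference of 0.85; over all genes tested, 19.1% were called in either direction, and the median was -0.08.

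Of 8 genes of the medial ganglionic eminence lineage, 7, 7, 6 and 6 had a count in deep libraries 1 to 4, at uneven levels, and Lhx8 had none. Lhx6, a LIM homeobox factor downstream of Nkx2-1, was at 98.0, 195, 465 and 170 CPM, overlapping the 185 to 319 CPM of upper chandelier libraries. It was higher than in the mean of the other 6 types (log2 5.35, SE 0.34, adjusted p = 4.9e-06). Against upper chandelier cells, 0 of the 8 genes were called. Satb1, a chromatin organiser of maturing interneurons, was at 60.8, 785, 0 and 0 CPM, so it was concentrated in library 2. Of the 8, 4 were called higher and 1, Sox6, lower than in the other 6 types; Sox6 (55.8, 19.7, 76.9 and 122 CPM) lost its call without library 1 or 3 (adjusted p up to 0.242).

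Several defining transcripts of other cells were at 0, while other markers were present. Sst was at 0 in all 4 deep libraries, as were Slc17a6, Neurod1, Neurod6, Emx1 and Nrn1 among 10 excitatory markers. Gfap and Gja1 of astrocytes, Mag, Mobp, Cldn11 and Mal of oligodendrocytes, Olig1 and Olig2 of their lineage, C1qa, C1qb, C1qc, Csf1r and Tyrobp of microglia, and Cldn5 of endothelium were also at 0. Other members of these lists had counts. Astrocyte markers summed to 118, 25.3, 28.0 and 59.5 CPM, against 77.1 to 248.5 CPM in upper libraries. Microglia markers summed to 62.2, 0.766, 29.6 and 33.5 CPM, against 4.79 to 147 CPM. Endothelial markers summed to 22.9, 16.1, 17.9 and 8.24 CPM, against 30.4 to 90.5 CPM. The summed excitatory markers stood at 19.3, 22.2, 208.8 and 9.3 CPM in deep libraries, against 79.5 to 122.7 CPM in upper ones. Library 3 was high through Camk2a, a kinase of excitatory neurons, at 15.7, 21.4, 189 and 7.14 CPM, with a count in 16 of its 16 cells, while the vesicular glutamate transporter Slc17a7 was at 6.54 CPM there and at 0 in the other 3. Summed oligodendrocyte markers were at 32.5, 145, 24.9 and 31.0 CPM, against 27.0 to 141 CPM in upper libraries, and library 2 was high through Mbp at 143 CPM. Deep-layer excitatory markers summed to 697, 475, 173 and 298 CPM, against 287 to 505 CPM in upper libraries, the highest of the other types. Library 1 lay above them through Bcl11b, a transcription factor gene also listed for interneurons, at 663, 270, 128 and 281 CPM; Fezf2, Crym, Ntsr1 and Rprm of that list were at 0. Of 7 upper-layer excitatory markers, 2 were higher than in the other 6 types, Wfs1 (56.5, 0, 3.79 and 10.4 CPM) and 6330527O06Rik (197, 19.2, 89.5 and 0 CPM). The latter is an older symbol of Lamp5, which is also listed for neurogliaform cells, as is Id2. Of 7 neurogliaform markers, 4 were higher and 1 lower, beside 12.3% and 6.79% of all genes tested. They summed to 2549, 2404, 1549 and 354 CPM, against 763 to 1025 CPM in upper libraries. Martinotti and long-projecting libraries held more, at 3746 CPM or above. Vip neuron markers summed to 342, 73.5, 309 and 3876 CPM, against 244.5 to 1202 CPM in upper libraries. What part such RNA has in the differences between libraries was not tested.

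Each deep library had its own set of genes that the other 3 lacked. The 8 genes with the largest ratio to the other deep libraries are named for each, and no gene in them exceeded 5.72 CPM in another deep library.

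Library 1 held Cbln2, a secreted synapse organiser, at 257, 0, 0 and 0 CPM in libraries 1 to 4, with a count in 14 of its 14 cells. Its other leading genes were Fkbp14 (293 CPM), Rrs1 (252 CPM), Aldh3a2 (191 CPM), Ftsjd1 (178 CPM), Ccdc74a (165 CPM), the Src-family kinase Lyn (164 CPM) and Eif4e3 (163 CPM). It also held the histamine receptor Hrh1 at 79.4, 0, 0.344 and 0 CPM and the synaptotagmin Syt10 at 57.2, 1.53, 0.688 and 0 CPM. Library 1 lacked Glp1r and was the deep library without Pvalb.

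Library 2 carried some of the transcripts known from PV basket cells, and others listed for Sst neurons. Tac1, which encodes the precursor of substance P, was at 5.72, 1434, 0 and 0 CPM in libraries 1 to 4, with a count in 14 of 14 cells of library 2. The calcium-binding protein gene Pvalb was at 0, 553, 172 and 165 CPM, with a count in 0 of 14, 14 of 14, 16 of 16 and 8 of 8 cells, against 154 to 527 CPM in upper chandelier libraries. Calb1, another calcium-binding protein gene, was at 87.9, 539, 0.344 and 0 CPM, the potassium channel gene Kcnc2 of fast-spiking cells at 207, 1059, 328 and 94.5 CPM, and Reln, a secreted matrix protein gene, at 164, 591, 88.8 and 18.1 CPM. Library 2 was the highest of the 4 in each. Calb1 and Reln are listed as Sst neuron markers, not as PV basket markers. The Sst list summed to 417.5, 1247, 310.5 and 478.3 CPM, although Sst itself was at 0. Upper chandelier libraries held 377 to 598 CPM and PV basket libraries 328 to 942 CPM of it. Summed over 8 PV basket markers, deep libraries 1 to 4 stood at 993, 4793, 1802 and 1090 CPM, against 1840 to 3085 CPM in upper chandelier libraries. PV basket libraries held 5190 to 6509 CPM. Neurofilament genes, which include the PV basket marker Nefh, summed to 34.5 CPM in library 2, against 213.8 to 659.2 CPM in PV basket libraries. Wnt3, a secreted signalling protein gene, was at 0.715, 619, 0 and 0 CPM, and Angptl1 (587 CPM), Arl6ip6 (519 CPM), Lpcat1 (749 CPM), Galntl5 (346 CPM), Shisa2 (337 CPM) and Bcl9 (326 CPM) completed the 8 with Tac1.

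Library 3, the deepest, was led by Zfand2b (237 CPM), Slc25a29 (209 CPM), Kif1c (182 CPM), Mycl1 (172 CPM), Rcn1 (159 CPM), Tdrd7 (155 CPM), St6galnac1 (149 CPM) and Slc35d1 (147 CPM). Nos1, the neuronal nitric oxide synthase gene and a driver of long-projecting cells, was at 1.43, 1.53, 45.4 and 1.65 CPM, with a count in 14 of 16 cells of library 3.

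Library 4, with 8 cells, carried some of the transcripts known from Vip neurons. Of 8 Vip neuron markers, 5 had a count there, while Calb2, Tac2 and Cxcl14 were at 0. Of 7 genes of the caudal ganglionic eminence lineage, 5 had a count in library 4, and Sp8 was at 0. Those 7 summed to 223, 373, 157 and 2992 CPM in libraries 1 to 4, mostly through Adarb2 and Cnr1 in library 4. Vip, which encodes vasoactive intestinal peptide, was at 0, 0, 2.75 and 1918 CPM in libraries 1 to 4. Adarb2, an RNA-binding protein gene of the caudal ganglionic eminence lineage, was at 189, 363, 150 and 2031 CPM, and Cnr1, the cannabinoid receptor gene, at 32.2, 0.766, 3.79 and 911 CPM. Npy2r, a neuropeptide Y receptor gene, was at 0, 0, 0.344 and 304 CPM, the peptide genes Crh and Penk at 150 and 130 CPM in library 4 and below 0.5 CPM in the other 3, and Cck at 342, 73.5, 305 and 1375 CPM. Library 4 was the highest in each and the lowest in Id2, Oprm1 (271, 436, 263 and 3.29 CPM) and Unc5c (695, 1105, 535 and 14.3 CPM). Its levels of Nkx2-1, Lhx6 and Pthlh lay within the range of libraries 1 to 3. Fxyd6 (327 CPM), Npas3 (460 CPM), Itgav (275 CPM), Adamts2 (266 CPM), Phrf1 (260 CPM) and Pbx4 (234 CPM) completed its 8 leading genes with Vip and Npy2r.

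Among upper chandelier libraries, library 1 alone also held Vip, at 374 CPM in 16 of its 16 cells, with Cnr1 at 794 CPM and Adarb2 at 1638 CPM, whereas Vip was at 0 in upper libraries 2 to 5. Vip averaged 370 ± 524 CPM over deep animals and 54.5 ± 77.1 CPM over upper animals (SD, n = 2 each), a spread as large as the means. The deep level of Vip against the other 6 types was called higher (log2 5.52, SE 1.34, adjusted p = 0.0139), and reversed to -2.42 without deep library 4.

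**Figure D3:**
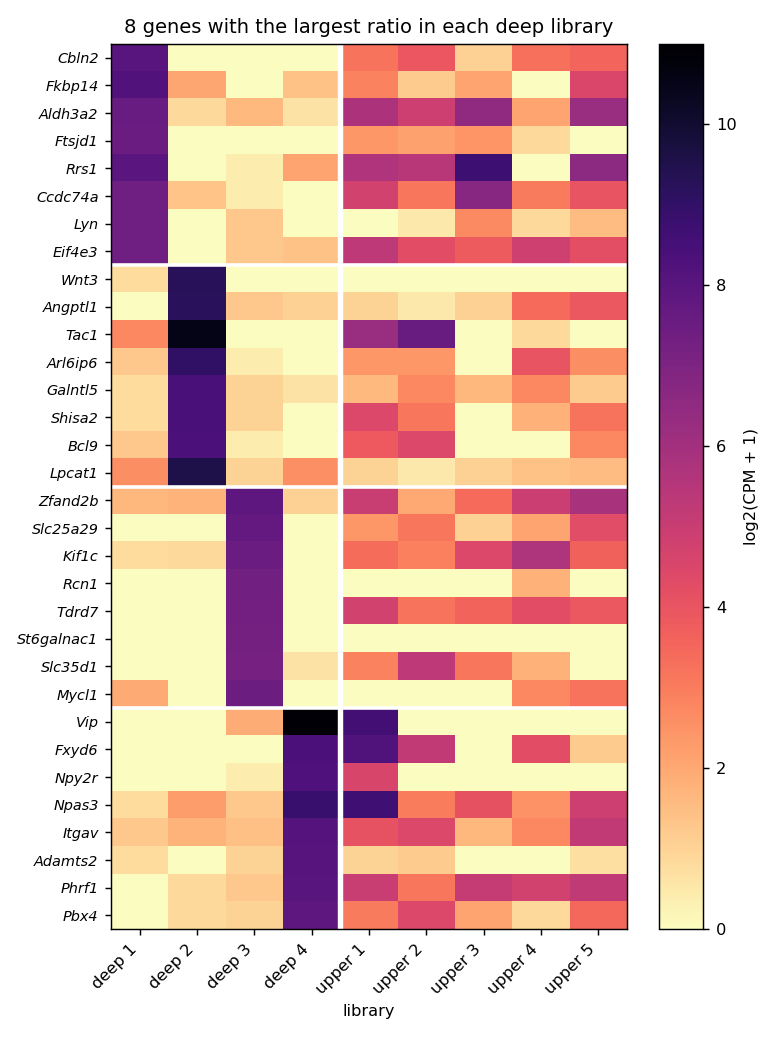
Heat map of log2(CPM + 1) for the 8 leading genes of each deep library, with deep libraries 1 to 4 left of upper chandelier libraries 1 to 5. Each block of 8 genes was high in its own deep library and at most 5.72 CPM in the other 3; the choice of genes sets this pattern, while the upper columns were not used in it.

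Against the mean of the other 6 types, 2967 of 15533 genes were called in deep chandelier cells (edgeR quasi-likelihood test, Benjamini-Hochberg adjusted p under 0.05), 1912 higher and 1055 lower. This comparison averages the other types on the log scale, so that a gene near 0 in several of them is called higher even where another type holds more: Vip, Adarb2 and Cck were called higher although their mean over the other 6 types was above that in deep cells. The 14 genes named higher and 8 named lower had the largest differences among those whose 4 deep libraries lay beyond every other type mean, a separation the choice requires; 122 genes met it on the higher and 291 on the lower side.

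Gdf10, a secreted growth factor of the BMP and TGF-beta superfamily, was at 85.8, 219, 23.4 and 141 CPM in deep libraries, while no other type mean exceeded 0.554 CPM. It was counted in 48 of 52 deep cells, against 3 of 80 upper chandelier and 1 of 127 PV basket cells. The log2 difference was 8.79 (SE 0.97, adjusted p = 9.87e-05), and it held in all 16 replicate leave-outs and all 4 library leave-outs. Hapln1, a link protein of the perineuronal matrix, was at 755, 313, 430 and 83.5 CPM, against 38.4 CPM in upper chandelier cells, the next highest type mean (log2 4.78, SE 0.40, adjusted p = 1.22e-05). Mpdz, a multi-PDZ scaffold protein gene, was at 1229, 1021, 911 and 851 CPM, against at most 434 CPM in any other library (log2 3.61, SE 0.23, adjusted p = 1.26e-06). Gdf10 and Mpdz exceeded the other 42 libraries in every deep library, and Hapln1 did so in libraries 1 to 3, with library 4 just under the upper chandelier maximum of 87.9 CPM.

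Ifi27l1, an interferon-inducible protein gene, was at 162, 113, 157 and 112 CPM, against at most 97.0 CPM elsewhere (log2 4.37, adjusted p = 1.03e-05). Slc25a33, a mitochondrial pyrimidine nucleotide carrier gene, was at 377, 356, 319 and 187 CPM, against at most 126 CPM elsewhere (log2 2.74, adjusted p = 2.39e-05). Both exceeded the other 42 libraries in all 4 deep libraries. Errfi1, an inhibitor of the epidermal growth factor receptor, was at 312, 334, 102 and 187 CPM (log2 3.59, adjusted p = 0.000305). Rchy1, a ubiquitin ligase gene, was at 119, 800, 280 and 249 CPM, and Pgbd5, a transposase-derived gene, at 234, 588, 194 and 179 CPM; library 2 was the highest in both. Ntmt1, Peli1 and Sestd1 completed those that held without each replicate. Necab2, a neuronal calcium-binding protein gene, was at 90.8, 85.0, 52.3 and 45.03 CPM and lost its call without deep animal 11 (adjusted p = 0.0728), as did Prkrir (adjusted p = 0.067). The Y-linked helicase gene Ddx3y was at 709, 1354, 266 and 330 CPM (log2 3.68), against 198 and 208 CPM in CCK basket and long-projecting cells, whose libraries are all labelled male, and is uncertain because it can share reads with its X-linked copy Ddx3x.

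The 8 genes named lower were at 0 in all 4 deep libraries. Aldoc, a brain form of aldolase in glycolysis, averaged 17.4 to 129 CPM in the other 6 types, at least 179-fold higher in their mean than the deep limit (adjusted p = 0.00149), and held in 16 of 16 replicate leave-outs. It was also listed among astrocyte markers, while Gfap and Gja1 were at 0 in deep cells. Pcp4, a calmodulin regulator gene, ran between type means of 2.66 and 1157 CPM in the others (adjusted p = 0.00499). Slc30a3, a vesicular zinc transporter gene, and Ptgds, a prostaglandin synthase gene, were at 0 as well (adjusted p = 0.0197 and 0.0366); both lost their calls without deep animal 11 or 12 (adjusted p up to 0.148), and Ptgds held in 10 of 16 replicate leave-outs. Ccnd2, a cyclin gene, lost its call without upper chandelier animal 14 (adjusted p = 1), Lypd1 without deep animal 12 (adjusted p = 0.0574) and Cpne2 without deep animal 11 or 12 or upper chandelier animal 13. Xist, the transcript that silences an X chromosome in females, was the eighth; it stood at 48.2 to 162 CPM in PV basket libraries, those labelled male included, and under 1 CPM in CCK basket and long-projecting libraries.

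Deep and upper chandelier cells share the driver and, but for upper library 3 with its label of Ai15, the reporter. This comparison therefore asks how the 2 groups defined by layer differ. Sex, age, flow cell and the labelled area of dissection differ with the layer. Of 15533 genes, 440 (2.83%) were called, 167 higher (1.08%) and 273 lower (1.76%) in deep cells, with a median over all genes of -0.07. With DESeq2 size factors in place of TMM the split turned to 261 higher and 236 lower, with a median of 0. In 178 genes (1.15%) every deep library lay above every upper one, and in 1341 (8.63%) below; with TMM-scaled CPM these were 380 (2.45%) and 831 (5.35%).

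On the higher side, Rasgrf2 came first after Banf2 and the Y-linked Ddx3y. Banf2 was at 121, 15.3, 174 and 9.34 CPM in deep libraries and had a single count in upper ones, and its call (adjusted p = 0.0123) was lost without upper animal 13 or 14. Fbxo21, a ubiquitin ligase subunit gene, was at 916, 419, 443 and 253 CPM, against 48.0 to 147 CPM (log2 2.73, adjusted p = 0.0147), and Coro1a, an actin-binding coronin gene, at 80.1, 35.2, 63.0 and 93.9 CPM, against 1.598 to 15.6 CPM (log2 3.12, adjusted p = 0.0187). Both were lost without upper animal 13 or 14.

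Chfr, a checkpoint ubiquitin ligase gene, averaged 78.9 ± 32.3 CPM in deep and 14.0 ± 4.77 CPM in upper animals (SD, n = 2 each), Ppdpf 119 ± 82.6 and 18.5 ± 7.67 CPM, and Lypd6, a modulator of nicotinic receptors, 186 ± 132 and 12.3 ± 15.9 CPM. Those 3 had adjusted p-values of 0.0227, 0.0319 and 0.0456 and were lost without upper animal 14, with adjusted p-values of 0.12, 0.214 and 0.176. Chfr was also lost without deep animal 11 or upper animal 13, and Ppdpf and Lypd6 held in 9 and 8 of 16 replicate leave-outs. Tmem90b lost its call without deep library 2 (adjusted p = 0.0623), Cdkl2 without deep library 1 (0.0505) and Slc44a1, a choline transporter gene, without deep library 1 (0.0532). Each of the 3 also lost it without upper animal 13 or 14. Tmem90b, Cdkl2 and Slc44a1 held in 13, 11 and 7 of 16 replicate leave-outs.

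On the lower side, several abundant transcripts of upper chandelier cells were nearly absent from deep ones. Sash1, a scaffold protein gene, was at 5.72, 30.6, 20.7 and 6.04 CPM in deep libraries, against 369 to 681 CPM in upper libraries, and its mean was 428 to 633 CPM in the other 6 types (log2 -4.68, SE 0.63, adjusted p = 0.00255). Slco2a1, a prostaglandin transporter gene, was at 3.58, 4.60, 3.79 and 7.69 CPM, against 171 to 320 CPM (log2 -5.39, SE 0.54, adjusted p = 0.000447). Lrrc17, a secreted leucine-rich repeat protein gene, was at 16.4, 3.06, 10.7 and 5.49 CPM, against 197 to 357 CPM (log2 -4.57, SE 0.59, adjusted p = 0.0019). In these 3 genes the highest deep library lay far below the lowest upper one. Each of the other 42 libraries, of all 6 types, held at least 175.5 CPM of Sash1, 58.7 CPM of Slco2a1 and 66.85 CPM of Lrrc17. The difference was therefore not particular to upper chandelier cells.

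Gng4, a G-protein gamma subunit gene, was at 0, 0.766, 0 and 7.69 CPM, against 68.7 to 130 CPM (log2 -5.47, SE 0.82, adjusted p = 0.00572). Sash1, Slco2a1, Lrrc17, Gng4, Rasgrf2, Ddx3y, Xist and its antisense Tsix were the named genes called in all 16 replicate leave-outs. Xist was at 0 in deep libraries, against 214 to 236 CPM, at least 567-fold higher in upper ones, and Tsix at 1.72 to 4.94 against 239 to 253 CPM. In these 2 groups both follow the labelled sex, and reads of the overlapping pair cannot be told apart because the sources used here do not say whether strand entered the counting.

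Ibsp, a bone matrix sialoprotein gene, was at 0 in deep libraries and at 12.5 to 265 CPM in upper ones, at least 270-fold higher in upper animals (adjusted p = 0.0431), with its call lost without deep library 1 (0.0516) and in 8 of 16 replicate leave-outs. Bcl6, a transcriptional repressor gene, was at 0, 0, 0 and 1.10 CPM, against 31.6 to 86.8 CPM, with an adjusted p of 0.0488 that held in 2 of 16 replicate leave-outs and was lost without deep library 1, 2 or 3. Ptprf (2.19 ± 1.61 against 73.6 ± 18.8 CPM), Aen (2.09 ± 1.75 against 57.8 ± 33.0 CPM), Gadd45g, a stress response gene (4.15 ± 4.30 against 120 ± 38.2 CPM), and Arl2bp (2.74 ± 3.61 against 73.0 ± 18.4 CPM, SD, n = 2 each) were the other 4. Each lost its call without upper animal 13 or 14 or both. They held in 15, 15, 13 and 7 of 16 replicate leave-outs. Arl2bp was also lost without deep library 4 (adjusted p = 0.0701).

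**Figure D4:**
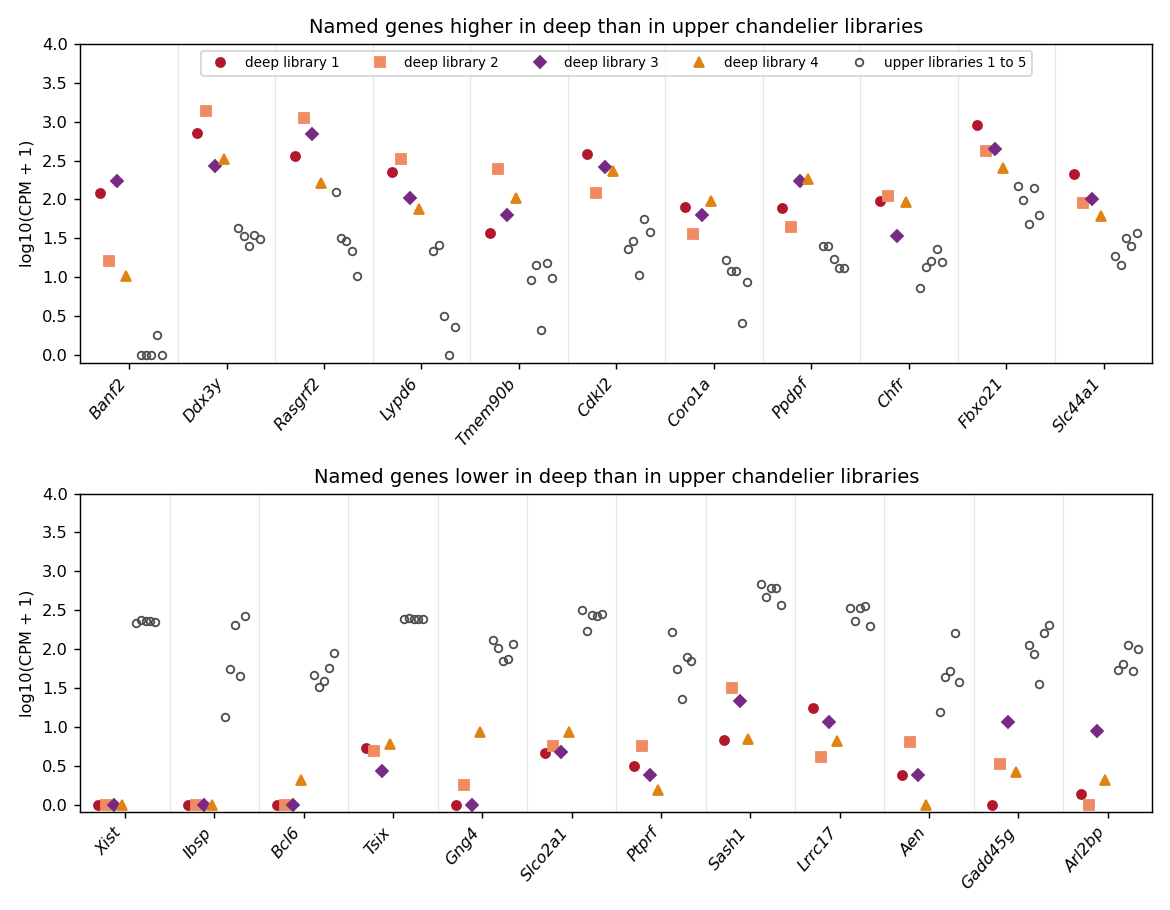
Levels as log10(CPM + 1) of 11 genes higher and 12 lower in deep than in upper chandelier cells, with deep libraries left of upper ones in each gene. The libraries of the 2 groups do not overlap in any of the 23, as the choice requires; Sash1, Slco2a1 and Lrrc17 stood at 3.06 to 30.6 CPM in deep libraries and at 171 to 681 CPM in upper ones.

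PV basket cells share the medial ganglionic eminence lineage and target the soma rather than the axon initial segment. Against them, 1069 of 15533 genes (6.88%) were called, 483 higher (3.11%) and 586 lower (3.77%), a split of 654 and 528 with DESeq2 size factors. In 221 genes (1.42%) every deep library lay above every PV basket library, and in 930 (5.99%) below, or 415 (2.67%) and 627 (4.04%) with TMM-scaled CPM. Nfib, a nuclear factor I gene, was at 1298, 559, 1200 and 258 CPM in deep libraries, against a mean of 57.0 ± 0.818 CPM in PV basket cells (log2 4.21, adjusted p = 0.00565), and Pcdh8, a protocadherin gene, at 979, 69.7, 423 and 124 CPM, against 31.3 ± 5.74 CPM (log2 4.01, adjusted p = 0.00207). All 4 deep libraries lay above every PV basket library in both, as the choice requires, and the call for Nfib was lost without PV basket unit 7 or 9 (adjusted p up to 0.071). Gdf10, Adarb2 (log2 4.26, adjusted p = 0.00207) and Ict1 (84.4, 712, 77.4 and 177 CPM, against 18.0 ± 2.91 CPM) were also higher, and Gdf10 and Ict1 were likewise lost without PV basket unit 7 or 9 (adjusted p up to 0.161 and 0.0972).

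Lower than in PV basket cells were Slit2, an axon guidance ligand gene, at 1.43, 1.53, 0.344 and 0 CPM, against 273 ± 15.1 CPM (log2 -8.22, adjusted p = 0.00685), and the retinol-binding protein gene Rbp4 at 0, 0, 0 and 2.20 CPM, against 77.7 ± 0.326 CPM (log2 -7.03, adjusted p = 0.00737). Ptgs1, a cyclooxygenase gene, Aldoc, Slc30a3 and Xist were the other 4; Ptgs1 and Slc30a3 were lost without either deep animal or either PV basket unit (adjusted p up to 0.103 in both). Among the 8 PV basket markers, 0 were higher and 3 lower: Syt2, a fast synaptotagmin gene (log2 -5.18, adjusted p = 0.0081), the heavy neurofilament gene Nefh (-3.85, adjusted p = 0.0018) and Kcnc1, a fast-spiking potassium channel gene (-1.35, adjusted p = 0.0245), the last lost without deep library 4. Pvalb, at 0 to 553 CPM in deep libraries and 1023 CPM in PV basket cells, did not pass (log2 -1.98, adjusted p = 0.244).

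Gene families were then read by role, as counts of members called beside the shares over all genes tested. Those shares were 12.3% higher and 6.79% lower against the other 6 types. They were 1.08% and 1.76% against upper chandelier cells, and 3.11% and 3.77% against PV basket cells. Of the 135 members called against the other 6 types, 77 kept their call without each deep library in turn; of 84 against PV basket cells 44 did, and of 32 against upper chandelier cells 12 did, among them Rasgrf2, Gad2, Cacnb4, Scn2a1, Rims1, Syt11 and Scg3, which were higher, and Vgf, Aldoc, Egr4 and Otof, which were lower. Cacnb4, Rasgrf2 and Vgf were called without each of the 16 replicates as well.

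Among 45 interneuron transcription factor genes, 14 were higher and 1 lower than in the other 6 types (median 0.63), and none was called against upper chandelier cells, where 10 had an unadjusted p under 0.05. Tox3, a high mobility group protein gene, was at 399, 63.6, 364 and 467 CPM, against 138 to 230 CPM in upper libraries (log2 4.51, SE 0.28, adjusted p = 1.3e-06 against the other 6 types), with library 2 the lowest. Mef2c, an activity-regulated MADS-box factor gene, was at 3054, 2223, 2338 and 1745 CPM (log2 2.38, SE 0.21, adjusted p = 1.5e-05). Sp9, of the Dlx-Sp network of interneuron development, was at 248, 212, 160 and 119 CPM (log2 2.88, adjusted p = 0.014), and Rora, a nuclear receptor gene, at 696, 142, 1048 and 1386 CPM (log2 1.78, adjusted p = 0.0016). Tox, in contrast, was at 242, 5.36, 242 and 0.549 CPM, high in 1 library of each animal and nearly absent from the other.

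Signalling genes of Ras exchange and cAMP had 9 of 28 members higher and 1 lower than in the other 6 types (median 0.65), and 4 higher and 0 lower than in upper chandelier cells. Rapgef4, a cAMP-activated exchange factor gene for Rap, was at 732, 224, 390 and 186 CPM, against 120 to 166 CPM in upper libraries (log2 1.74, adjusted p = 0.0333; lost without deep library 1 or 3). Adcy2, an adenylyl cyclase gene, was at 126, 21.4, 158 and 174 CPM, against 18.4 to 47.8 CPM (log2 2.47, adjusted p = 0.00583; 0.0563 without deep library 1). Pde4b, a cAMP phosphodiesterase gene, was at 90.9, 22.4, 10.7 and 223 CPM, against 4.62 to 18.2 CPM (log2 3.36, adjusted p = 0.00916; 0.0797 without deep library 4). Adcy1, an adenylyl cyclase gene, was even across deep libraries at 531, 513, 460 and 430 CPM and was higher than in the other 6 types (log2 2.50, adjusted p = 0.00136), with no call against upper chandelier cells at 154 to 448 CPM (log2 0.94, adjusted p = 0.418). The summed list stood at 5625, 5610, 5328 and 5893 CPM in deep libraries, against 3658 to 4136 CPM in upper ones, a quantity with less scatter between deep libraries than its members.

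Receptors varied more between libraries. Of 12 secretin-type receptor genes, Glp1r, Vipr2 and Adcyap1r1, the receptor gene for PACAP, were higher than in the other 6 types, and each was concentrated in different libraries: Adcyap1r1 was at 31.5, 722, 166 and 97.2 CPM and lost its call without library 2 (adjusted p = 0.768). Of 19 other neuropeptide receptor genes, 5 were higher, where 12.3% of all genes tested were. Oprm1, the mu opioid receptor gene, was at 271, 436, 263 and 3.29 CPM, against 20.9 to 41.5 CPM in upper libraries (log2 3.40, adjusted p = 0.0254; 0.165 without deep library 3), and Hcrtr2, an orexin receptor gene, at 57.9, 10.7, 57.1 and 0 CPM, against 1.09 to 11.4 CPM (log2 3.03, adjusted p = 0.0493; lost without deep library 1 or 3). In both, library 4 was the lowest. Among the GABA receptor genes tested, Gabrb2, Gabrd and Gabrg3 were higher and Gabra2 and Gabrb1 lower than in the other 6 types. Gabrb2, a beta subunit gene, was at 1017, 840, 689 and 577 CPM, against 133 to 382 CPM in upper libraries, without overlap and without a call between them (log2 1.91, adjusted p = 0.096), and Gabra2, an alpha subunit gene, was at 0.715, 0, 4.47 and 3.29 CPM, against 15.8 to 54.3 CPM (log2 -3.63, adjusted p = 0.064).

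Against upper chandelier cells, 2 of 46 potassium, 2 of 21 calcium and 1 of 13 sodium and HCN channel genes were higher. Lower calls were made for 2 potassium channel genes. Of all genes tested, 1.08% were higher and 1.76% lower. Cacnb4, an auxiliary beta subunit gene of voltage-gated calcium channels, was at 918, 533, 519 and 527 CPM, against 138 to 216 CPM (log2 2.15, SE 0.28, adjusted p = 0.00246). Cacna2d1, an alpha2delta subunit gene, was at 543, 974, 922 and 63.1 CPM, against 108 to 229 CPM (log2 2.51, SE 0.34, adjusted p = 0.0032); library 4 lay below the upper range, and the call was lost without library 3 (0.136). Scn2a1, a sodium channel gene of axon initial segments, was at 434, 405, 543 and 477 CPM, against 186 to 272 CPM (log2 1.35, SE 0.27, adjusted p = 0.0232). Cacnb4 and Scn2a1 did not overlap between the groups.

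Kcnab1 and Kcnab2, auxiliary potassium channel genes, were at 242, 382, 371 and 354 CPM and at 162, 541, 325 and 275 CPM, against 86.8 to 160 and 69.7 to 150 CPM in upper libraries (adjusted p = 0.044 and 0.0474), and both were lost without deep library 2. Kcna6 was at 80.1, 3.06, 42.0 and 53.8 CPM, against 105 to 298 CPM (log2 -2.01, adjusted p = 0.0438; lost without deep library 1, 2 or 3), and Kcnip2 was at 0, against 1.27 to 12.4 CPM (0.0432; lost without deep library 1). Among 17 axon initial segment genes, 2 were higher, the sodium channel genes Scn1a and Scn2a1, and 3 lower than in the other 6 types. Of all genes tested, 12.3% were higher and 6.79% lower there. Ank3, the scaffold that organises the segment, was at 295, 88.9, 175 and 221 CPM (log2 -0.94, adjusted p = 0.0184), and its call was lost without library 2.

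Vesicle release genes gave 8 higher and 4 lower calls of 34 against the other 6 types, and 4 higher and 1 lower against upper cells. All genes tested gave 12.3% and 6.79% against the other 6 types, and 1.08% and 1.76% against upper cells. Syt11, a synaptotagmin gene, was at 1926, 1942, 1575 and 1646 CPM, against 591 to 1257 CPM in upper libraries (log2 1.13, SE 0.21, adjusted p = 0.0187). Rims1, an active zone scaffold gene, was at 543, 627, 635 and 356 CPM, against 157 to 357 CPM (log2 1.82, adjusted p = 0.0302), and Syt7, another synaptotagmin gene, at 277, 282, 293 and 392 CPM, against 67.6 to 241 CPM (log2 1.34, adjusted p = 0.0477; 0.0532 without deep library 2). Rab3c, a vesicle GTPase gene, was called higher (log2 1.26, adjusted p = 0.046; lost without deep library 2), and its relative Rab3a was lower, at 327, 336, 422 and 140 CPM, against 754 to 885 CPM (log2 -1.06, adjusted p = 0.0406; lost without deep library 1 or 4). All 4 deep libraries lay below the upper range for Rab3a.

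Of 21 neuropeptide and granule genes tested, 6 were higher and 2 lower than in the other 6 types, beside 12.3% and 6.79% of all genes. Vgf, a granule protein precursor gene, was at 2.86, 7.66, 2.06 and 1.65 CPM, against 25.4 to 125 CPM in upper libraries and at least 25.4 CPM in each of the other 42 (log2 -4.19, SE 0.54, adjusted p = 0.00183 against upper cells; -5.70, adjusted p = 2.5e-05 against the other 6 types). Scg3, a secretogranin gene, was at 367, 600, 325 and 235 CPM, against 56.7 to 188 CPM (log2 1.73, adjusted p = 0.0254). The groups did not overlap in either.

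Adhesion and guidance genes were mixed, beside 12.3% of all genes tested called higher and 6.79% lower against the other 6 types. Of 25 cadherins, 5 were higher and 5 lower than in the other 6 types, and none was called against upper cells, where 11 had an unadjusted p under 0.05; Pcdh7 was at 2.50, 27.6, 5.85 and 29.1 CPM and at least 40.6 CPM in each other library, a separation not seen with TMM-scaled CPM (log2 -3.08, adjusted p = 0.00046), and Cdh12 at 390, 108, 409 and 1188 CPM (log2 2.33, adjusted p = 0.0018). Of 37 guidance genes, 6 were higher and 2 lower, close to those shares over all genes. Unc5d, a netrin receptor gene, was even at 560, 793, 867 and 532 CPM, against 317 to 525 CPM in upper libraries. Its log2 difference to the other 6 types was 2.88 (adjusted p = 3.2e-05), and its adjusted p against upper cells was 0.24. Ncam2, an immunoglobulin-type adhesion gene, was at 292, 59.0, 317 and 478 CPM, against 19.6 to 93.5 CPM (log2 2.61, adjusted p = 0.0312; 0.0753 without deep library 1). Among 24 genes of inhibitors of DNA binding and BMP signalling, Id2, Bmp4 and Tgfb2 were higher and 0 lower: Tgfb2, a growth factor gene, was at 76.5, 1.53, 111 and 75.2 CPM, with library 2 again near 0, against 0 to 16.5 CPM in upper libraries (log2 5.01, adjusted p = 8.3e-05 against the other 6 types; 3.88, adjusted p = 0.055 against upper cells).

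**Figure D5:**
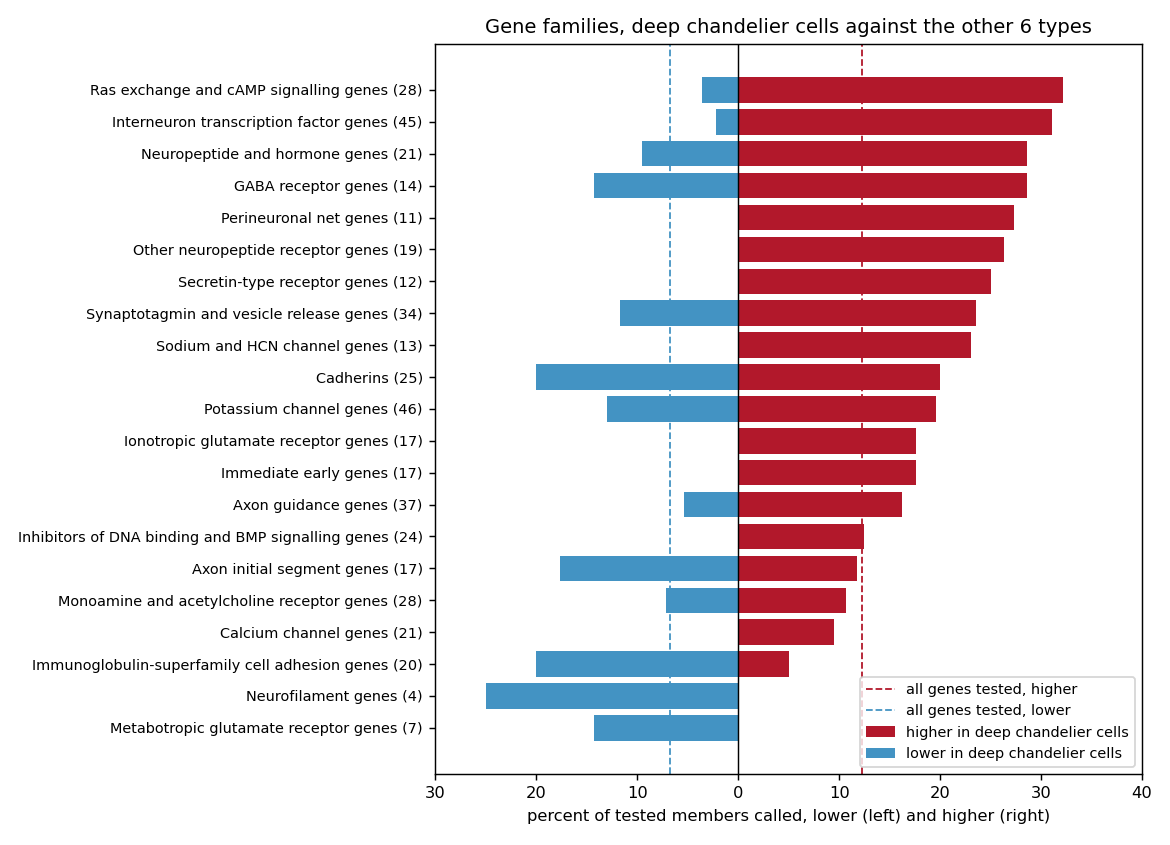
Percent of the tested members of 21 gene families called lower (bars to the left) and higher (bars to the right) in deep chandelier cells than in the other 6 types. Dashed lines give the shares over all 15533 genes, 6.79% lower and 12.3% higher; families hold 4 to 46 tested members, so a single gene moves a small family far.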

How the data were processed

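Single fluorescent neurons were isolated from dissociated brain slices, and their RNA was amplified linearly in 2 rounds and made into libraries with a small RNA kit, per the labels' protocols. Expected counts per gene and cell (4.07% of non-zero values were not whole) were deposited by the authors, and the submitters' processing notes name Bowtie 0.12.7 and the genome build mm9. Whether the random tag of 10 bases entered the counting is not stated in the labels, so amplification may add to the spread. No genome sequence of that build was used.

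Counts of 23335 genes were summed per library (for levels) and per animal (for tests) and rounded to whole numbers; PV basket animals 7 and 8, and 9 and 10, were merged to 1 replicate each, because 8 pairs of their libraries, each with a library of either animal, differed little beyond sampling (chi-square per degree of freedom 1.22 to 1.72, against 8.28 or more between other PV basket libraries). The labels number 18 animals, the design text 4. The 16 replicates of all 7 types entered a single edgeR 4.0.16 fit (R 4.3.3; TMM, robust quasi-likelihood, filterByExpr keeping 15533 genes, Benjamini-Hochberg threshold 0.05; coefficient of variation between replicates 61.7%). The p-values rest on a spread estimated over the replicates of all 7 types together (9 residual degrees of freedom). With 2 deep animals, they do not measure the spread among deep samples alone, and summing per animal leaves out differences between libraries of 1 animal. The spread may be partly technical. The scripts were tested on simulated counts.

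Named genes had an adjusted p under 0.05, at least 50 CPM in the higher group, and the largest fold changes (14 higher and 8 lower against other types, 12 per side against upper chandelier and 6 per side against PV basket cells), with deep libraries beyond all other type means, or not overlapping the libraries compared. The 5 markers and 7 driver genes were always kept, and for each deep library the 8 genes of at least 100 CPM with the largest ratio to the other 3. Unnamed loci were passed over, and some genes that met these rules are not reported here. The cells, the 39 gene lists and these rules were chosen with earlier results of these data known, and the leaving out of deep libraries 2 and 4 and TMM-scaled CPM for separations between libraries were chosen after seeing their values. Alternatives covered DESeq2 size factors and the DESeq2 1.42.0 Wald test, count filters, replicate units, a replicate block, the groups fitted, and each replicate or library left out. Of listed symbols, 3 were matched by an older symbol and 1 was not matched.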

Additional observations from a re-analysis of the deposited data

Results flagged for a closer look

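In 12 of 62 named genes and markers, 1 deep chandelier library stood apart from the other 3. The gap exceeded the 95% limit of Dixon's test for 4 samples, used here as a descriptive cutoff. That limit assumes independent, normally distributed values, whereas these were CPM of 4 libraries from 2 animals, so no chance rate is given. Where 3 libraries were at 0, any count in the remaining library passed. Library 4 stood apart in 6 of them: Vip at 1918 CPM (0 to 2.75 in the others), Adarb2 at 2031 CPM, Gng4 at 7.687 CPM, Rbp4 at 2.196 CPM, Bcl6 at 1.098 CPM and Ptgs1 at 0.5491 CPM, the last 3 against 0 in libraries 1 to 3. Library 3 stood apart in 4: Nkx2-1 at 60.23 CPM (15.0 to 16.5 in the others), Nos1 at 45.43 CPM, Arl2bp at 7.917 CPM and Calb2 at 0.3442 CPM, a single count. Library 2 stood apart in 2: Pgbd5 at 588.4 CPM (179 to 234 in the others) and Ict1 at 711.8 CPM. In Vip and Adarb2 the library holds 8 cells of animal 12, and library 3, of the same animal, did not share the level.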

How the results depend on the processing

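Against the other 6 types, 2967 genes were called, 2046 to 3299 with 1 of the 16 replicates left out and up to 3548 with 1 library left out. Taking each library as a sample with no replicate block gave 4766 here, 2581 against upper chandelier and 4755 against PV basket cells; the replicate block added to those library fits gave 2900, 1101 and 2185. Against upper chandelier cells the 440 calls became 2100 with the DESeq2 Wald test, 1151 with 18 animals, 682 without deep libraries 2 and 4 (chosen after seeing the data) and 0 when only both groups were fitted by edgeR (1661 at an unadjusted p under 0.05); leaving out a replicate gave 43 (upper animal 14) to 1343 (deep animal 12). Against PV basket cells the 1069 calls became 2714 with the DESeq2 Wald test, 3126 with 18 animals and 0 with only both groups fitted by edgeR (2595 at an unadjusted p under 0.05), and 150 (without PV unit 9) to 1797 (without deep animal 12). Title numbers did not pair libraries (r of same-numbered deviations -0.004 to 0.005). Cell spread moved to 0.983, still near 1, with genes of at least 500 counts.

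Directions turned in 15 of 3130 gene values, a share that the choice of genes largely sets. Genes named for a difference were picked for separated libraries or type means, and they did not turn in any setting. All turns were in marker and driver genes kept whatever their values: Vip, Nkx2-1, Nos1, Cck and Pvalb. Some of the 3130 values were mean levels, which cannot turn. Without deep libraries 2 and 4, Vip was -2.172 against the other 6 types and -4.669 against upper chandelier cells. With 1 replicate or library left out, log2 values ran from -8.457 to 7.354 (Vip), -0.051 to 1.309 (Nkx2-1) and -1.254 to 2.879 (Nos1) against the other 6 types; from -10.968 to 13.990 (Vip), -0.408 to 1.530 (Cck) and -2.042 to 0.385 (Pvalb) against upper chandelier cells; and from -0.079 to 1.256 (Nkx2-1) and -2.241 to 13.883 (Vip) against PV basket cells. The causes were not tested. TMM-scaled CPM, tried after seeing the data, moved the genes whose libraries did not overlap to 380 higher and 831 lower against upper chandelier, 415 higher against PV basket, and 70 above and 42 below all other libraries. In deep cells a gene with 0 counts may stand at up to 0.404 CPM.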

Other observations

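Which side deep chandelier libraries left the range of all others on depended on the scaling. Among genes of at least 50 CPM, 21 lay above and 76 below each of the other 42 libraries in all 4 deep libraries, while upper chandelier libraries had 15 above and 0 below. With TMM-scaled CPM, which raises deep levels, the deep counts were 70 above and 42 below. Ftl1, a ferritin light chain gene, was at 617, 766, 579 and 487 CPM, against at most 212 CPM elsewhere, and Ogt, which attaches N-acetylglucosamine to proteins, at 483, 354, 284 and 473 CPM, against at most 264 CPM. On the low side, Hk1, a hexokinase gene, was at 14.6 to 49.3 CPM in deep libraries, against 136 to 462 CPM elsewhere, Cpe, a peptide-processing carboxypeptidase gene, at 120 to 239 CPM, against 333 to 1632 CPM (overlapping with TMM-scaled CPM), and Kcnmb4, a subunit gene of large-conductance potassium channels, at 0.344 to 1.53 CPM, against 4.42 to 221 CPM. The genes were picked by this range, so it carries no test.

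Genes of the respiratory chain and ATP synthase, grouped after the values were seen, summed to 16506, 19537, 24807 and 19154 CPM in deep libraries, against 30153 to 34249 CPM in upper chandelier and 33242 to 42793 CPM in PV basket libraries. Interneuron-selective (18067 to 20020 CPM), Martinotti (19858 to 23075 CPM) and CCK basket (20748 to 28768 CPM) libraries overlapped the deep range. Of 78 such genes, 1 was called higher and 13 lower than in upper chandelier cells (median log2 -0.67), where 1.08% and 1.76% of all genes tested were, with a median of -0.07. Cytosolic ribosomal protein genes summed to 17859 to 29642 CPM in deep and 21715 to 29986 CPM in upper chandelier libraries, with 7 of 76 higher and 6 lower.

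Transcript length moved with these differences. Among genes of at least 50 CPM, 230 with a longest annotated transcript of at most 1000 bases had a median log2 difference of -0.27 to upper chandelier cells (1.74% higher, 7.83% lower), and 5036 longer ones had 0.46 (2.98% higher, 2.2% lower); 92% of 5727 genes had a length. The part of length in the differences was not tested.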
